A study of Mus musculus with 6 samples.

Results

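A set of 10 genes of cytosolic RNA and DNA sensing was followed in SL4 cells, a mouse CRC line that expresses luciferase. They were chosen by gene symbol out of the 53700 genes listed by the authors, and all 10 were found, each under 1 identifier. They are the RIG-I-like receptors Ddx58 (RIG-I, listed under its older symbol), Ifih1 (MDA5) and Dhx58 (LGP2), the adaptor Mavs, the double-stranded RNA effectors Eif2ak2 (PKR) and Adar, the DNA sensor Cgas with its adaptor Sting1, and the kinases Tbk1 and Ikbke. Poly-A mRNA was sequenced from 3 libraries of SL4 cells without SEMA6A overexpression (pLV-Control) and 3 of SL4 cells stably overexpressing SEMA6A from a lentivirus (pLV-SEMA6A). No drug, cytokine or virus other than the lentivirus is named for either group. The promoter of the vector, and whether the control cells carried an empty vector, are not given in the sources used here. The labels do not say that the libraries came from separate cultures or separately made lines, so p-values measure the spread between these libraries, which may be technical.

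Cells detect foreign or misplaced nucleic acids in the cytosol with dedicated proteins. RIG-I and MDA5 bind double-stranded RNA and pass the signal to MAVS on mitochondria, while LGP2 has no signalling domain of its own and modulates both. cGAS binds double-stranded DNA and makes cGAMP, which activates STING on the endoplasmic reticulum. Both routes meet at the kinases TBK1 and IKKε (Ikbke), which phosphorylate IRF3 and lead to type I interferon. Several of the sensors are themselves interferon-stimulated genes, so their transcripts rise when interferon signals. PKR stops translation by phosphorylating eIF2α, and ADAR edits adenosine to inosine in double-stranded RNA, which keeps self RNA from being read as foreign.

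Values are TPM, which corrects for the length of the transcript and the size of the library, so levels of different genes can be set side by side. TPM keeps no sequencing depth, so how many reads support a level is not known. A gene was called if its log2 fold change was over 0.5 in either direction and limma's adjusted p was below 0.05. Since 1 was added to each TPM before the log was taken, fold changes of low genes come out too small. The overexpressed gene, Sema6a, was listed at 0 throughout pLV-Control and measured 98.7, 118 and 112 TPM with pLV-SEMA6A. Of 8 colon epithelial markers (Epcam, Krt8, Krt18, Krt19, Cdh1, Cdx2, Vil1 and Krt20), 0 reached a mean of 1 TPM, and Epcam and Cdx2 were listed at 0 in every library, so the defining markers of colon epithelium were absent or nearly so in these cells of CRC origin. Of 8 leukocyte markers, Cd68 alone reached a mean of 1 TPM, and the sum of the 8 was 1.05 to 2.53 TPM in pLV-Control and 0.870 to 1.76 TPM in pLV-SEMA6A. Ptprc, which marks all leukocytes, was at 0.0133 TPM in pLV-Control and at 0 in pLV-SEMA6A. The 8 fibroblast and endothelial markers summed to 14.4 to 14.6 TPM in pLV-Control and 12.7 to 14.0 TPM in pLV-SEMA6A, but single markers moved in opposite directions. Col1a1 was called higher (1.27 to 3.60 TPM, log2 fold change 1.02, limma adjusted p = 6.81e-04) and Pdgfrb was called lower (10.5 to 6.66 TPM, log2 fold change −0.59, limma adjusted p = 4.42e-04). Col1a2, below the filter, averaged 0.42 and 0.87 TPM without overlap, and Dcn was not called. The part of these markers in the results on the sensing genes was not tested. In bulk RNA, fewer cells that express a gene and less of its RNA per cell cannot be told apart.

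The start regions of 6 genes are printed because 5 of them were called lower in pLV-SEMA6A and the last, Tbk1, was not. Each stretch runs 5′ to 3′ from 130 bases before the annotated start to 50 bases after it, as RefSeq gives it on GRCm38.p6, and capitals mark the core of the interferon-stimulated response element (ISRE), GAAANNGAA or its reverse complement TTCNNTTTC. For Adar, the region shown is that of 1 of its 3 annotated starts.
Ddx58, chr4:40239776-40239955, minus strand: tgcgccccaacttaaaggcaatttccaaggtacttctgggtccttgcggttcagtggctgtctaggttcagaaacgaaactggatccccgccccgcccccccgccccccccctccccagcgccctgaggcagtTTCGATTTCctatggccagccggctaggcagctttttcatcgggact
Ifih1, chr2:62646206-62646385, minus strand: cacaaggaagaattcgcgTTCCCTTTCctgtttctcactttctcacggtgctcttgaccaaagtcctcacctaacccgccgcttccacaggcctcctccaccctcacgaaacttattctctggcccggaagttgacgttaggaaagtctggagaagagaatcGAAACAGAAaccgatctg
Eif2ak2, chr17:78882523-78882702, minus strand: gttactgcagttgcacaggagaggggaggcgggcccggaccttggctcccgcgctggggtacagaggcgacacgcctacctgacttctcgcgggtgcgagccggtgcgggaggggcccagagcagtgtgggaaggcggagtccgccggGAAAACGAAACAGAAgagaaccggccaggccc
Adar, chr3:89730588-89730767, plus strand: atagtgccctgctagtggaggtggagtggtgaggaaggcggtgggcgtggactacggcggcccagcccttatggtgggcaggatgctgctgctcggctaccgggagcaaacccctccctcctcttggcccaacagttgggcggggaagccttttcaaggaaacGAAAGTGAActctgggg
Ikbke, chr1:131279514-131279693, minus strand: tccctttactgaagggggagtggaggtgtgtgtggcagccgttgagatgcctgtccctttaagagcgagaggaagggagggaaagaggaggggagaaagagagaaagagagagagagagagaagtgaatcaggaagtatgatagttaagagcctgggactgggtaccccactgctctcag
Tbk1, chr10:121586745-121586924, minus strand: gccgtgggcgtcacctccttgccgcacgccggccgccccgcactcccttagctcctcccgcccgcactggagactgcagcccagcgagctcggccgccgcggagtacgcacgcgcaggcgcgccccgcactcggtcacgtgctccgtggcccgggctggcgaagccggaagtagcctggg

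Promoters of 300 bases, from 250 before to 50 after the start, were searched for 8 of the 10 genes. None was held for Dhx58, and Sting1 was left out of the search, so whether they hold either motif is not known here. The search thus covers neither Dhx58, which was called lower, nor Sting1, which was not called. The ISRE core was found in Ifih1, Ddx58, Eif2ak2 and 1 of the 3 starts of Adar, and not in these windows of Ikbke, Mavs, Cgas or Tbk1. Of all 32851 promoters in the table, 2812 (8.56%) held it on either strand. Counted by gene, 2638 of 27025 held it in at least 1 promoter. In Ifih1 it occurred at 112 bases before the start and again at 32 after it. In the Adar start shown, a match lies 33 bases after the start and another lies outside the stretch printed. In Eif2ak2 a pair of matches overlapped at 18 and 24 bases after the start, in the run GAAAACGAAACAGAA. The Ddx58 match began 3 bases after the start. The GAS motif TTCNNNGAA, which reads the same on both strands, was found in Eif2ak2 and in the same start of Adar, without overlap with the ISRE core. It was held by 8.30% of all promoters, and by 2582 of the 27025 genes in at least 1 promoter. A match of letters is a description and was not tested for binding.

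In pLV-SEMA6A cells, 6 of the 10 genes were called lower and 0 were called higher. The RIG-I-like receptors fell most, to between 27.3% and 33.8% of their pLV-Control TPM, followed by Ikbke, Eif2ak2 and Adar. Cgas, Sting1 and Tbk1 did not pass the test, and Mavs passed the p threshold without reaching the minimum fold change. Of the 12510 genes tested, 10.8% were called lower and 5.12% higher. That split of 1347 lower and 640 higher became 961 and 1002 after centring the libraries on their medians, and 943 and 886 under quantile normalization. By unadjusted limma p under 0.05, 7 of the 10 genes were lower and 0 higher, where 32.6% of all genes tested were lower and 22.3% higher. Over the 10 genes, log2 fold changes had a median of −0.78, and over all genes tested one of −0.064. All 10 genes passed the filter of a mean of 1 TPM.

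**Figure D1:**
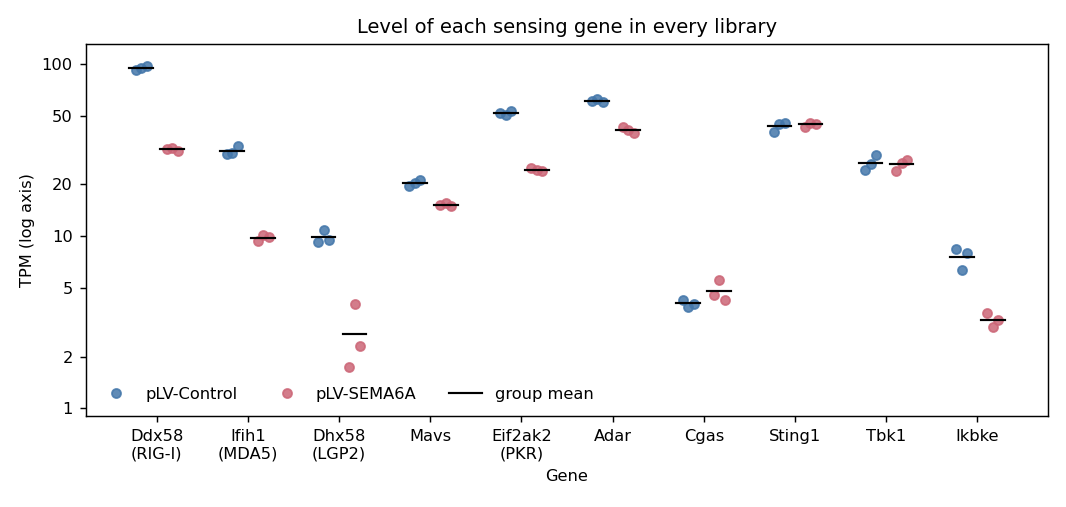
TPM of the 10 sensing genes (log axis) in every library, with pLV-Control in blue, pLV-SEMA6A in red and black bars for the group means. The 3 pLV-SEMA6A libraries lie below the 3 pLV-Control libraries for 7 genes, interleave with them for Sting1 and Tbk1, and lie just above them for Cgas.

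The groups did not overlap, with pLV-SEMA6A lower, for Ddx58, Ifih1, Dhx58, Mavs, Eif2ak2, Adar and Ikbke. Such separation was found for 34.7% of the genes tested. Cgas was the gene among the 10 with every pLV-SEMA6A library above every pLV-Control library, which held for 23.8% of all genes tested. Without a minimum fold change, 7 of the 10 genes were lower at an adjusted p under 0.05 from limma, against 28.2% of all genes tested.

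Ddx58 encodes RIG-I, the receptor for short double-stranded RNA with a 5′ triphosphate, and lies on chromosome 4 from 40203773 to 40239828 (GRCm38). It measured 91.24, 94.21 and 96.32 TPM with pLV-Control against 31.86, 32.48 and 31 TPM with pLV-SEMA6A. The libraries of each group lay close together and the groups were far apart, with means of 93.9 ± 2.55 and 31.8 ± 0.743 TPM (SD, n = 3 per group). The log2 fold change was −1.53 (standard error 0.036, limma adjusted p = 1.30e-06). It was the highest of the 10 genes in pLV-Control and the third in pLV-SEMA6A, below Sting1 and Adar.

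Ifih1 encodes MDA5, which binds long double-stranded RNA, and lies on chromosome 2 from 62595798 to 62646255. It measured 30.00, 30.23 and 33.29 TPM with pLV-Control against 9.30, 10.13 and 9.88 TPM with pLV-SEMA6A. The highest pLV-SEMA6A library held less than the lowest pLV-Control library, and the log2 fold change was −1.58 (95% confidence interval −1.72 to −1.43). Only 1.27% of the genes tested had a lower log2 fold change than Ifih1.

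Dhx58 encodes LGP2, the third member of the family, and lies on chromosome 11 from 100694884 to 100704271. It measured 9.18, 10.81 and 9.52 TPM with pLV-Control against 1.74, 4.03 and 2.29 TPM with pLV-SEMA6A. The groups did not overlap, but the pLV-SEMA6A libraries spread more than those of any other gene of the 10 relative to their mean of 2.69 ± 1.195 TPM (SD, n = 3). The log2 fold change was −1.60, with the widest 95% confidence interval of the 10 genes, −2.13 to −1.07 (limma adjusted p = 0.00151). pLV-SEMA6A replicate 2 was the highest of its group, and without it the log2 fold change was −1.85. In that library the mitochondrial mt-Co3 was listed at 0.33 TPM, against 140.6 to 450 TPM in the other 5. No other mitochondrial gene is given here, and a link to the level of Dhx58 was not tested. The library listed 18798 genes above 0, against 18863 and 18887 in pLV-SEMA6A replicates 1 and 3.

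The RIG-I-like receptors together gave 130.4, 135.2 and 139.1 TPM with pLV-Control against 42.9, 46.6 and 43.2 TPM with pLV-SEMA6A. The sum was therefore 32.8% of its control mean, and every pLV-SEMA6A library was below every pLV-Control library (exact permutation test, two-sided, p = 0.1, the smallest that 3 libraries against 3 allow). Each of the 3 genes was already lower without overlap, so their sum had to separate and this p adds nothing to the single genes. The shares of the sum lay close together in the groups. RIG-I took 69.6% ± 0.366 of it in pLV-Control and 71.9% ± 2.31 in pLV-SEMA6A, MDA5 23.1% ± 0.792 and 22.1% ± 0.686, and LGP2 7.29% ± 0.615 and 6.00% ± 2.37 (SD, n = 3 per group).

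**Figure D2:**
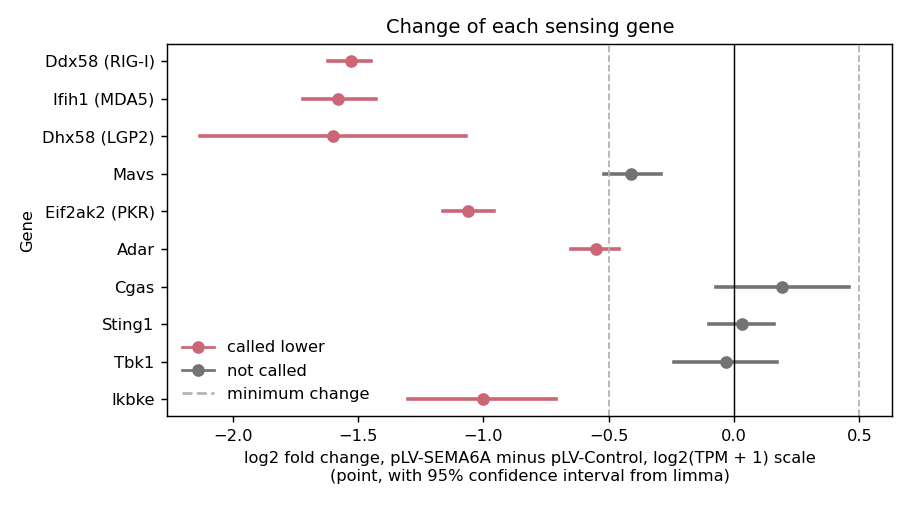
log2 fold change of each sensing gene on the log2(TPM + 1) scale (point) with its 95% confidence interval from limma (line), and dashed lines at the minimum change of 0.5 in either direction. The 3 RIG-I-like receptors lie near −1.6, Ikbke and Eif2ak2 near −1, Adar at −0.55 and Mavs at −0.41, while the intervals of Cgas, Sting1 and Tbk1 include 0.

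Mavs encodes the mitochondrial adaptor on which RIG-I and MDA5 act, and lies on chromosome 2 from 131234063 to 131248025. It measured 19.61, 20.36 and 21.21 TPM with pLV-Control against 15.09, 15.51 and 14.84 TPM with pLV-SEMA6A. The groups did not overlap, yet the log2 fold change of −0.41 (95% confidence interval −0.52 to −0.29, limma adjusted p = 9.08e-04) was under the minimum of 0.5, and Mavs was not called. Its pLV-SEMA6A mean was 74.3% of the pLV-Control mean, where that of Ifih1 was 31.3%.

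The double-stranded RNA effectors Eif2ak2 and Adar were both called lower, though Adar was not with centring. Eif2ak2, on chromosome 17 from 78852564 to 78882573, encodes PKR. It measured 51.66, 50.21 and 53.44 TPM with pLV-Control against 24.91, 24.12 and 23.68 TPM with pLV-SEMA6A, with a log2 fold change of −1.06 (standard error 0.041, limma adjusted p = 9.06e-06). The libraries of each group lay close together and did not overlap with those of the other group. n-R5s29 and Gm26637 overlap Eif2ak2 on the opposite strand, and no level is listed for either, so their part in its TPM cannot be judged.

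Adar encodes the editing enzyme ADAR1 and lies on chromosome 3 from 89715022 to 89753446. It measured 60.90, 62.48 and 59.50 TPM with pLV-Control against 42.63, 41.36 and 39.85 TPM with pLV-SEMA6A. The groups were apart, and the log2 fold change of −0.55 (95% confidence interval −0.65 to −0.46, limma adjusted p = 9.25e-05) was just past the minimum of 0.5. Centring the libraries on their medians gave −0.46, and Adar was no longer called. ADAR1 is made as a long interferon-inducible form and a shorter constitutive form, and a level per gene does not separate them. Chrnb2, which overlaps Adar on the opposite strand, had a mean of 0.920 TPM.

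The DNA-sensing pair did not pass the test. Cgas, on chromosome 9 from 78430526 to 78443237, encodes the synthase that makes cGAMP on DNA. It measured 4.25, 3.9 and 4.05 TPM with pLV-Control against 4.57, 5.59 and 4.27 TPM with pLV-SEMA6A. All pLV-SEMA6A libraries were above all pLV-Control libraries by a narrow margin, and the log2 fold change was 0.19 (95% confidence interval −0.074 to 0.46, limma adjusted p = 0.198). Under quantile normalization the log2 fold change was 0.37 with an adjusted p of 0.0296 from limma, still under the minimum of 0.5.

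Sting1 encodes STING, the receptor of cGAMP, and lies on chromosome 18 from 35733679 to 35740554. It measured 40.33, 44.53 and 45.54 TPM with pLV-Control against 42.75, 45.50 and 44.87 TPM with pLV-SEMA6A. The libraries of both groups interleaved, and the log2 fold change was 0.031 (95% confidence interval −0.10 to 0.16, limma adjusted p = 0.677). The interval holds no fall of the size seen in the 3 RNA receptors.

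Of the related kinases, Ikbke was called lower and Tbk1 was not. Tbk1, on chromosome 10 from 121546455 to 121586787, measured 24.27, 26.16 and 29.45 TPM with pLV-Control against 23.88, 26.67 and 27.47 TPM with pLV-SEMA6A. These libraries interleaved, and the log2 fold change was −0.031 (95% confidence interval −0.24 to 0.17, limma adjusted p = 0.788). Its sign turned under some of the alternatives given at the end.

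Ikbke encodes IKKε, the kinase of the pair that is known to be inducible, and lies on chromosome 1 from 131254343 to 131279606. It measured 8.44, 6.33 and 8.01 TPM with pLV-Control against 3.60, 2.95 and 3.26 TPM with pLV-SEMA6A. The groups did not overlap, and the log2 fold change was −1.0 (95% confidence interval −1.30 to −0.71, limma adjusted p = 9.46e-04). Gm28914 and Gm28913 overlap it on the opposite strand, at means of 0.05 and 0.18 TPM.

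In pLV-Control the order of mean TPM was Ddx58, Adar, Eif2ak2, Sting1, Ifih1, Tbk1, Mavs, Dhx58, Ikbke and Cgas, and no neighbours in this order overlapped between libraries. In pLV-SEMA6A the order was Sting1, Adar, Ddx58, Tbk1, Eif2ak2, Mavs, Ifih1, Cgas, Ikbke and Dhx58. There, Tbk1 and Eif2ak2 overlapped, as did Ikbke and Dhx58, so these neighbours could not be ranked beyond their spread. The top of the list thus held RIG-I at 93.9 TPM in pLV-Control and STING at 44.4 TPM in pLV-SEMA6A.

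For partner genes, 6 ratios were compared within libraries, which removes any factor common to a library. The log2 ratio of Ifih1 to Mavs was 0.61 ± 0.040 in pLV-Control and −0.63 ± 0.058 in pLV-SEMA6A (SD, n = 3 per group), so that MDA5 transcripts went from 1.53 to 0.65 per MAVS transcript. The log2 ratio of Ikbke to Tbk1 was −1.82 ± 0.27 and −2.99 ± 0.23, and that of Eif2ak2 to Adar −0.24 ± 0.080 and −0.77 ± 0.015 (SD, n = 3 per group). In these 3 pairs the groups did not overlap (exact permutation test, two-sided, p = 0.1, or 0.15 adjusted over the 6 pairs, where 0.1 is the smallest possible). The share of all gene pairs that separate in this way was not computed. Ifih1 to Mavs and Ikbke to Tbk1 each set a called gene against one not called, so they are not evidence apart from the single genes.

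With all libraries, ratios among the RIG-I-like receptors differed less between groups than those of Ifih1 to Mavs, Eif2ak2 to Adar and Ikbke to Tbk1. The log2 ratio of Ddx58 to Ifih1 differed by 0.11 between the groups (exact permutation p = 0.1, adjusted 0.15), without overlap. That of Dhx58 to Ifih1 differed by −0.29 with overlap (exact permutation p = 0.5). It differed by −0.60 without pLV-SEMA6A replicate 2 and by −0.053 without pLV-SEMA6A replicate 1, so its size rested on single libraries. The log2 ratio of Cgas to Sting1 was −3.42 ± 0.15 in pLV-Control and −3.21 ± 0.18 in pLV-SEMA6A (SD, n = 3 per group), with overlap (exact permutation p = 0.2).

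**Figure D3:**
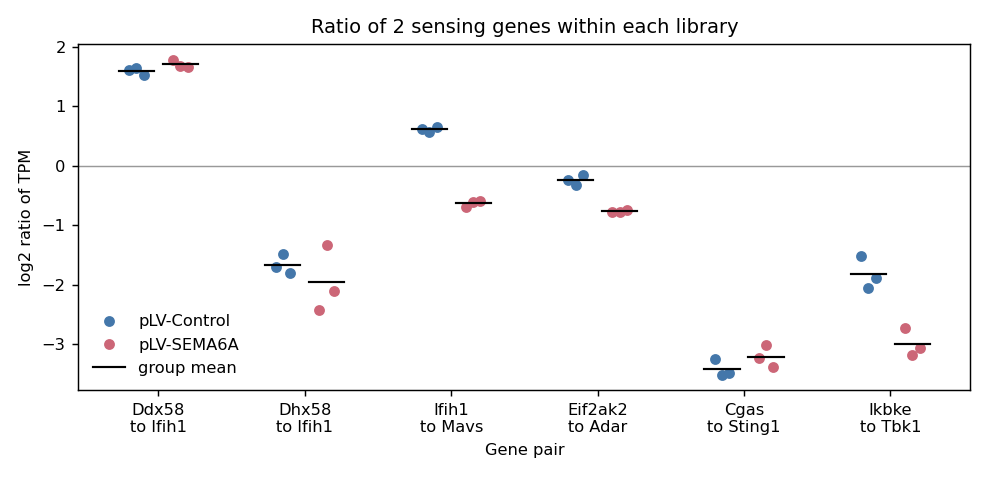
log2 ratio of the TPM of 2 partner genes within each library, for 6 pairs, with pLV-Control in blue, pLV-SEMA6A in red and black bars for group means. The ratios of Ifih1 to Mavs, Eif2ak2 to Adar and Ikbke to Tbk1 are lower in all 3 pLV-SEMA6A libraries, and the ratio of Dhx58 to Ifih1 overlaps between the groups.

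The wider pathway was described with 7 lists that hold 138 genes. Of all 12510 genes tested, 10.8% were called lower and 5.12% higher, and with centring 961 and 1002 genes were. Of 20 regulators of the RIG-I-like receptors, 19 were tested, 4 were called lower and 1 higher (4 and 2 with centring), and the median log2 fold change was 0.064. Ddx60, a helicase linked to RIG-I, fell from 9.36 ± 0.797 to 1.09 ± 0.285 TPM (SD, n = 3 per group), a log2 fold change of −2.32 (limma adjusted p = 4.24e-05). The log2 fold change was −1.31 for Trim14, an adaptor at MAVS, −0.98 for Trim25, a ubiquitin ligase of RIG-I, and −0.80 for Prkra, which activates PKR. Rnf125, a ubiquitin ligase that marks RIG-I for degradation, had a log2 fold change of 0.72 (limma adjusted p = 0.0103). Of the most abundant genes that were not called, Pcbp2 had a log2 fold change of 0.064 and Ywhae, a 14-3-3 protein, one of 0.31.

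Of 19 genes that act after MAVS and STING, all were tested, and the median was −0.15. Here 2 were called lower and 0 higher (2 and 1 with centring or quantile normalization), against 10.8% and 5.12% of all genes tested. By unadjusted limma p under 0.05, 9 of the 19 were lower and 3 higher, against 32.6% and 22.3% of all genes tested. The called genes were both interferon regulatory factors. Irf7, the inducible factor that amplifies interferon, measured 212.26, 210.97 and 216.91 TPM with pLV-Control against 25.17, 24.00 and 21.55 TPM with pLV-SEMA6A, a log2 fold change of −3.13. Irf5 fell from 6.37 ± 0.505 to 1.41 ± 0.426 TPM (SD, n = 3 per group), a log2 fold change of −1.63. Irf3, the constitutive factor that TBK1 phosphorylates, is named after its values were seen. Its log2 fold change of −0.30 (limma adjusted p = 0.00103) was under the minimum of 0.5, so Irf3 was not called. Its pLV-SEMA6A libraries were lower without overlap, as in 34.7% of all genes tested. Nfkb1 and Tax1bp1, the most abundant of the others, had log2 fold changes of 0.11 and 0.022.

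Of 21 regulators of cGAS and STING, 20 were tested, 3 were called lower and 1 higher, and the median was 0.040. Of all genes tested, 10.8% were called lower and 5.12% higher. With centring or quantile normalization 3 of the list were called lower and 3 higher, Slc19a1 and Trim32 being added. Calls over all genes moved too, to 961 lower and 1002 higher with centring and 943 and 886 under quantile normalization. The log2 fold change was −0.93 for Abcc1, an exporter of cGAMP, −0.82 for Trim56, a ubiquitin ligase of this route, and −0.66 for Sec24c, a coat protein for export from the endoplasmic reticulum. G3bp1, a stress granule protein that assists cGAS, rose from 105 ± 0.233 to 168 ± 0.926 TPM (SD, n = 3 per group), a log2 fold change of 0.67. Banf1, which shields self DNA, had a log2 fold change of 0.068 and Surf4 one of −0.36, and neither was called. Enpp1, which degrades cGAMP, was below the filter.

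Of 20 other cytosolic sensors, 19 were tested, and the median was 0.16. In this list 2 were called lower and 2 higher, against 10.8% and 5.12% of all genes tested. With centring the calls were 2 and 6, and under quantile normalization 2 and 3. Higher calls over all genes also went from 640 to 1002 with centring. Zbp1, a sensor of Z-form nucleic acid, fell from 21.2 ± 0.323 to 4.34 ± 0.604 TPM, and Ifi204, a DNA-binding protein of the IFI200 family, from 83.7 ± 0.605 to 24.2 ± 0.968 TPM (SD, n = 3 per group). Their log2 fold changes were −2.06 and −1.75. Dhx9, a nuclear helicase that unwinds double-stranded RNA, rose from 37.9 ± 0.851 to 80.7 ± 1.02 TPM (SD, n = 3 per group), a log2 fold change of 1.07 (limma adjusted p = 3.49e-06). Xrcc5, the Ku80 subunit that binds DNA ends, had a log2 fold change of 0.63. Hnrnpa2b1 and Ddx3x were not called, at 0.45 and 0.48, and both were called higher after centring the libraries on their medians. Aim2 was below the filter.

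Of 15 genes that clear self nucleic acids, 14 were tested, and the median was −0.25. Among them 3 were called lower and 0 higher (3 and 1 with centring or quantile normalization), against 10.8% and 5.12% of all genes tested. At an unadjusted limma p under 0.05, 7 of the 14 were lower and 1 higher, against the same 32.6% and 22.3%. Samhd1, which degrades deoxynucleotides, fell from 57.5 ± 0.850 to 32.8 ± 2.76 TPM (SD, n = 3 per group), a log2 fold change of −0.79. Pnpt1, which degrades RNA in mitochondria, had a log2 fold change of −0.61, and the lysosomal nuclease Dnase2a one of −0.64. Rnaseh2a, a subunit of the enzyme that removes RNA from DNA, had a log2 fold change of 0.066, and Wdr61 of the Ski complex −0.13, and neither was called.

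Of 29 genes of the eIF2 arm and other proteins that bind or edit double-stranded RNA, 28 were tested and 0 were called by limma. Among all genes tested, 10.8% were called lower and 5.12% higher. At an unadjusted p under 0.05, 8 of the 28 were lower and 13 higher, again against 32.6% and 22.3% of all genes tested. With centring, 0 were called lower and 2 higher. Eif2s2, a subunit of the factor that PKR phosphorylates on its partner subunit, had a log2 fold change of 0.020. Ppp1r15a, which brings a phosphatase to eIF2, had one of 0.49 (limma adjusted p = 7.55e-04), at 170 ± 7.83 and 240 ± 16.9 TPM (SD, n = 3 per group). The median of this list was 0.071.

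The interferons themselves were near or at 0. Of 14 cytokines that the sensors induce, 12 were below the filter, and Ifna2, Ifna4, Ifna5, Ifnl2, Ifnl3 and Ifnk were listed at 0 in every library. Ifnb1 read 0, 0 and 0.12 TPM with pLV-Control against 0.24, 0 and 0.25 TPM with pLV-SEMA6A, with overlap. Ifne was listed at 0.29 TPM in pLV-Control replicate 3 and 0.76 TPM in pLV-SEMA6A replicate 2, and at 0 elsewhere. Il6 was at 0.54 ± 0.312 and 0.297 ± 0.0635 TPM (SD, n = 3 per group), and Tnf, Cxcl9 and Cxcl11 had group means of at most 0.0867 TPM.

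Both cytokines that were tested were called lower, where 10.8% of all genes tested were called lower and 5.12% higher. The other 12 of the list were below the filter and give no call. Ccl5, a chemokine for T cells, measured 542.15, 518.55 and 539.77 TPM with pLV-Control against 61.46, 73.11 and 71.52 TPM with pLV-SEMA6A, a log2 fold change of −2.94 (limma adjusted p = 1.05e-06). Cxcl10, an interferon-inducible chemokine, fell from 188.5 ± 1.07 to 58.2 ± 3.14 TPM (SD, n = 3 per group), a log2 fold change of −1.68. A level of 0 in a table of TPM can be a failed estimate, so no fold is given for the interferons.

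**Figure D4:**
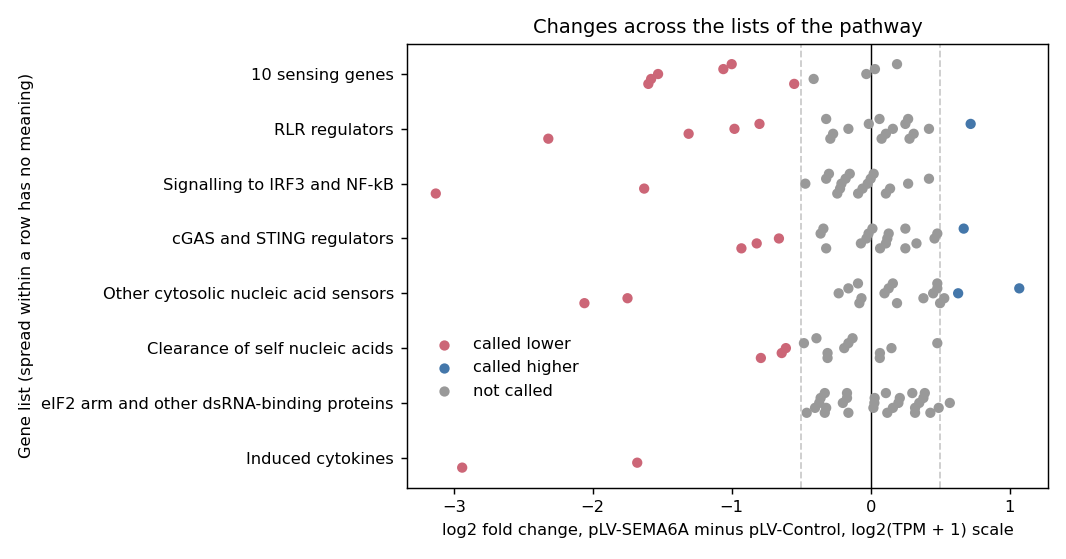
log2 fold change of every tested gene of the 7 lists and of the 10 sensing genes, one point per gene, red where called lower, blue where called higher and grey where not called, with dashed lines at 0.5 in either direction. The sensing genes reach −1.60, single genes of the other lists reach further (Irf7 at −3.13, Ccl5 at −2.94), and no point of the eIF2 list is coloured.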

How the data were processed

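Poly-A mRNA profiles of SL4 cells, 3 libraries per group, were analysed from the table of TPM that the authors deposited. Per the labels, the submitters' processing notes name HISAT, Bowtie2, RSEM and mm39, without roles or versions. The group means, also TPM made by the authors, were not used. Gene positions (GENCODE M21) and promoters (RefSeq) are on GRCm38, matched by identifier or symbol, and 52093 of the 53700 listed identifiers were found.

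A count test planned for read counts was not used, since the values are TPM. Genes averaging 1 TPM or more (12510) were fitted as log2(TPM + 1) with limma 3.58.1 (R 4.3.3, trend option, group as the only term), with Benjamini-Hochberg adjustment over all genes tested. The steps were tested on simulated data.

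The genes, the lists and the tests were chosen with earlier results of these data known. All 10 sensing genes are described, and of each list up to 4 called genes with the largest change and up to 2 abundant genes not called (all of the cytokines). Rnf125, Irf3, Enpp1, Aim2, mt-Co3 and the genes named beside alternatives were named after their values were seen.

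At most 4.08% of the 31-base stretches of the transcripts of any of the 10 genes occurred in other genes (Eif2ak2). The strand setting of the counting is not given in the sources used here, so reads of genes on opposite strands cannot be told apart. Besides the overlaps named above, Dhx58os (mean 0.1 TPM) overlaps Dhx58 and Gm8093 (0 TPM) overlaps Cgas on the opposite strand. The alternatives were another pseudocount, filter, scaling, variance model and minimum fold change, the replicate block, and each library left out in turn.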

Additional observations from a re-analysis of the deposited data

How the results depend on the processing

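With each library left out in turn, 6 of the 10 sensing genes were called lower in every fit. The same count was found with a pseudocount of 0.1, with no filter, with a filter at a mean of 5 TPM (Cgas then untested), under quantile normalization and without the trend option. It was 5 with each library centred on its median (without Adar), 5 at a minimum log2 fold change of 1 (without Adar) and 7 with no minimum (with Mavs). Centring raised every log2 fold change by 0.093, and the calls over all genes went from 1347 lower and 640 higher to 961 lower and 1002 higher. The log2 fold change of Tbk1 turned to 0.062 with centring and 0.031 under quantile normalization, and ran from −0.093 to 0.041 with libraries left out, being above 0 without pLV-Control replicate 3 or pLV-SEMA6A replicate 1. That of Sting1 ran from −0.021 (without pLV-Control replicate 1) to 0.064.

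With no minimum fold change, 5959 of the 12510 genes tested were called. In the lists these were 16 of 19 regulators of RIG-I-like receptors, 11 of 19 genes after MAVS and STING and 11 of 20 regulators of cGAS and STING. They were also 12 of 19 other sensors, 8 of 14 clearance genes and 18 of 28 genes of the eIF2 list. At a minimum of 1, 385 of the 12510 genes were called. Among them were 2 of 19 regulators of RIG-I-like receptors (Ddx60 and Trim14), 0 of 20 regulators of cGAS and STING and 0 of 14 clearance genes. With the filter at 5 TPM, 3 regulators of RIG-I-like receptors (Ddx60, Trim25 and Prkra) and 1 gene after MAVS and STING (Irf7) were called, since Rnf125, Trim14 and Irf5 were then below the filter. With centring, 8 other sensors and 2 genes of the eIF2 list (Ppp1r15a and Ppp1r15b) were called, and with a pseudocount of 0.1, 1 gene of the eIF2 list (Eif2ak3). With libraries left out, between 0 and 2 genes of the eIF2 list were called. These were Eif2ak3 without pLV-Control replicate 1, Adat3 and Ppp1r15a without pLV-Control replicate 3, Eif2ak3 and Ppp1r15a without pLV-SEMA6A replicate 1, and Ppp1r15a without pLV-SEMA6A replicate 2. The cause of these moves was not tested where the filter or the minimum does not set them.

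Libraries with the same replicate number did not deviate together, with correlations of their deviations from the group means between −0.079 and −0.023. With the replicate block, 1924 genes were called, against 1987 without it, and 6 of the 10 sensing genes. The block changed no other count by over 1.5 times. Without read counts, no limit of detection can be given for low genes such as Dhx58, Cgas and Ikbke.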

Other observations

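Among 8177 other tested genes that averaged 10 TPM or more, those whose profile over the 6 libraries was most like the mean standardized profile of the 10 sensing genes were Atl2 (Pearson r = 0.999), Cwc27 (r = 0.998) and Ppp2r2a (r = 0.998). Their log2 fold changes were −0.22, −0.26 and −0.14, smaller than those of the 6 sensing genes that were called. The 6 points are 2 groups of 3 libraries, so r here is a description of these libraries.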
